A study of Mus musculus with 13 samples.

Results

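The genes described are 10 neurotrophic factor receptors, chosen by name from the 48709 gene rows of the count tables: Ret, Gfra1, Gfra2, Ntrk2, Ntrk3, Ngfr, Cntfr, Lifr, Il6st and Met. All 10 had a row and passed the filter on low counts that left 17403 genes for testing. The study sequenced RNA of spinal motoneurons from SOD1-G93A mice, which carry a mutant human SOD1 transgene and model amyotrophic lateral sclerosis. Per the labels' protocols, each library came from 1 mouse aged 65 days, as a pool of 500 motoneurons cut by laser from stained sections of the lumbar ventral horn.

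The 13 libraries fell into 3 groups. In the AAV-miR SOD1 group (n = 4; labelled replicates 1, 2, 3 and 4), an adeno-associated virus (AAV) put into the cerebral ventricles on postnatal day 2 drove an artificial microRNA against human SOD1 in astrocytes. The AAV-miR ctrl group (n = 5; replicates 1, 3, 4, 5 and 6) received the control vector in the same way, and the non-injected group (n = 4; replicates 2, 3, 5 and 6) consisted of littermates without virus. All 3 groups carried the SOD1-G93A transgene, and no library from mice without it was analysed here. The microRNA was therefore directed to a different cell type from the one sequenced, and the promoter that drives it is not given in the sources used here.

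Neurotrophic factors are secreted proteins that keep neurons alive and support their axons, and each acts through a receptor complex on the cell surface. GDNF-family ligands bind a GPI-anchored GFRα co-receptor that recruits the tyrosine kinase RET; BDNF and NT-3 bind the tyrosine kinases TrkB (Ntrk2) and TrkC (Ntrk3), and all neurotrophins bind p75NTR (Ngfr). CNTF binds CNTFRα, which joins LIFRβ and gp130 (Il6st) to signal through JAK and STAT3, and HGF binds MET. Spinal motoneurons are a classical target of GDNF, BDNF, CNTF and HGF.

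Among the receptors, Ret, Gfra1, Ntrk2 and Ntrk3 had lower mean levels in AAV-miR SOD1 libraries than in either control group. Their log2 fold changes lay between -1.21 and -0.47. Cntfr was at -0.93 against AAV-miR ctrl and at -1.81 against non-injected mice. Defining markers of motoneurons were lower in AAV-miR SOD1 libraries too. Fewer motoneurons in the captured material and less transcript per motoneuron therefore cannot be told apart. Lifr, Il6st, Met and Gfra2 stayed within 0.34 log2 units of the controls in both comparisons. Ngfr had the lowest mean level, with 0 to 153 counts per library. Only AAV-miR SOD1 replicate 1 and AAV-miR ctrl replicate 1 were below 3 counts. None of the 10 genes passed an adjusted p of 0.05 in the edgeR quasi-likelihood test with Benjamini-Hochberg adjustment over all genes tested, and neither did any other gene (0% called in each comparison). Adjusted p-values are given beside each gene, and an unadjusted p under 0.05 is used only to count genes against the share of all genes that it calls.

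The libraries held 13897189 to 37414222 counts in gene rows. The 4 deepest, those numbered 5 and 6, were all controls, and 46.97% to 61.58% of all reads listed fell in rows that name no gene, mostly reads aligned to several places. Column headers inside 2 tables named another group than the label, in the third replicate of AAV-miR ctrl and of non-injected mice; the labels were followed. Motoneuron markers were detected in every library: the summed level of 7 defining markers (Chat, Slc5a7, Slc18a3, Isl1, Isl2, Mnx1 and Prph) lay at 527 to 1033 CPM (counts scaled to a common, TMM-adjusted library size) in AAV-miR SOD1, 737 to 2287 in AAV-miR ctrl and 909 to 2338 in non-injected libraries. Markers of other cells were also detected, and none of the marker genes examined was at 0 in all 13 libraries.

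Levels were compared between genes as CPM per kilobase of merged exons. In non-injected mice the order was Ret (26.0 ± 9.26, SD, n = 4), Lifr (14.5 ± 3.60), Gfra1 (10.8 ± 2.999), Il6st (9.99 ± 2.503), Cntfr (6.25 ± 4.602), Ntrk2 (3.83 ± 0.94), Ntrk3 (1.22 ± 0.33), Met (1.11 ± 0.48), Gfra2 (0.95 ± 0.53) and Ngfr (0.56 ± 0.29). Of the neighbours in that order, only Ret and Lifr, and Ntrk2 and Ntrk3, had ranges that did not overlap. With the longest transcript as the length, Il6st (12.78) stood just above Gfra1 (12.77). Ntrk2 (8.45) was then near Cntfr (8.71), which was the higher of both in only 1 of 4 libraries. By merged exons, the AAV-miR ctrl group began with Ret (22.0 ± 6.67, SD, n = 5) and Lifr (16.5 ± 4.43). It ended with Ngfr (0.71 ± 0.84), and all of its neighbours overlapped.

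In the AAV-miR SOD1 group the co-receptor Lifr (14.4 ± 3.16, SD, n = 4) stood above Ret (13.4 ± 3.60), but Lifr was the higher of both in only 2 of 4 libraries. With the longest transcript as the length, Ret (16.6 ± 4.46) was above Lifr (16.1 ± 3.53) in this group too. Il6st (9.05 ± 1.31) was above Gfra1 (4.68 ± 1.81), and Gfra1 above Ntrk2 (2.33 ± 0.39), without overlap, although with the longest transcript Gfra1 and Ntrk2 overlapped.

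**Figure D1:**
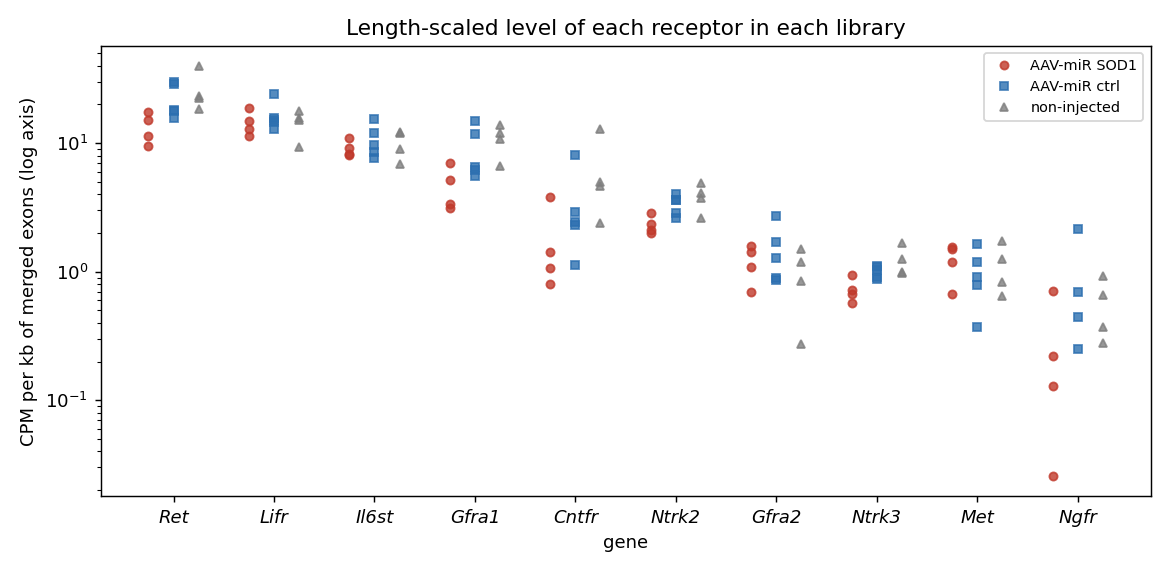
Level of each receptor in each library as CPM per kilobase of merged exons (log axis), with AAV-miR SOD1 libraries as circles, AAV-miR ctrl as squares and non-injected as triangles. Ret, Lifr, Il6st and Gfra1 lead in all 3 groups and Ngfr has the lowest mean; the AAV-miR ctrl library with 0 Ngfr counts cannot be drawn on a log axis.

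The GDNF receptor pair is considered first. Ret encodes the receptor tyrosine kinase itself (ENSMUSG00000030110, GRCm38, chr6:118151745-118197718, minus strand). Its level was 76.8, 119, 64.7 and 102 CPM in AAV-miR SOD1 replicates 1 to 4. It was 106, 119.7, 123, 201 and 194 CPM in AAV-miR ctrl replicates 1, 3, 4, 5 and 6, and 125, 267, 153 and 157 CPM in non-injected replicates 2, 3, 5 and 6. All AAV-miR SOD1 libraries lay below all non-injected ones, whereas AAV-miR SOD1 replicate 2 overlapped the lowest AAV-miR ctrl library. Against AAV-miR ctrl the log2 fold change of Ret was -0.72 ± 0.28 (SE; edgeR adjusted p = 0.291), which is 60.8% of the control level. Against non-injected mice it was -0.96 ± 0.30 (edgeR adjusted p = 0.140).

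Gfra1 encodes GFRα1, the co-receptor that binds GDNF (ENSMUSG00000025089, chr19:58235604-58455909, minus strand). Its level was 17.3, 38.5, 18.4 and 28.4 CPM in the AAV-miR SOD1 libraries. It was 33.8, 35.5, 30.6, 80.8 and 64.3 CPM in AAV-miR ctrl and 36.6, 66.1, 75.1 and 59.4 CPM in non-injected libraries. AAV-miR SOD1 replicate 2 stood above 3 of the 5 AAV-miR ctrl libraries and above 1 non-injected library, while replicates 1, 3 and 4 were below every control. The log2 fold change was -0.94 ± 0.35 (SE; edgeR adjusted p = 0.277) against AAV-miR ctrl. It was -1.21 ± 0.36 (edgeR adjusted p = 0.140) against non-injected mice, or 43.3% of their level. An antisense gene shares 416 exon bases with Gfra1, but it had 1 count over all libraries.

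Gfra2 encodes GFRα2, the preferred co-receptor of neurturin (ENSMUSG00000022103, chr14:70890120-70979838, plus strand). It was measured at 2.46 to 5.63 CPM in AAV-miR SOD1, 3.05 to 9.59 CPM in AAV-miR ctrl and 0.968 to 5.35 CPM in non-injected libraries. The groups overlapped throughout, and the log2 fold changes had different signs, -0.31 ± 0.48 (SE) against AAV-miR ctrl and 0.33 ± 0.50 against non-injected mice. Both extremes (the highest AAV-miR ctrl and the lowest non-injected library) are the libraries whose headers contradict their labels. With these 2 exchanged, the values became 0.27 and -0.38.

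The balance within the GDNF receptor was read from ratios within each library. The log2 ratio of Ret to Gfra1 CPM was 1.85 ± 0.22 (SD, n = 4) in AAV-miR SOD1, 1.66 ± 0.25 (n = 5) in AAV-miR ctrl and 1.55 ± 0.43 (n = 4) in non-injected libraries. The ranges overlapped, at 1.62 to 2.15, 1.31 to 2.002 and 1.02 to 2.01 in that order, and the differences were not tested. The log2 ratio of Ret to Gfra2 was 4.41 ± 0.24, 4.88 ± 0.92 and 5.84 ± 1.51 in the same order of groups, with ranges that overlapped.

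**Figure D2:**
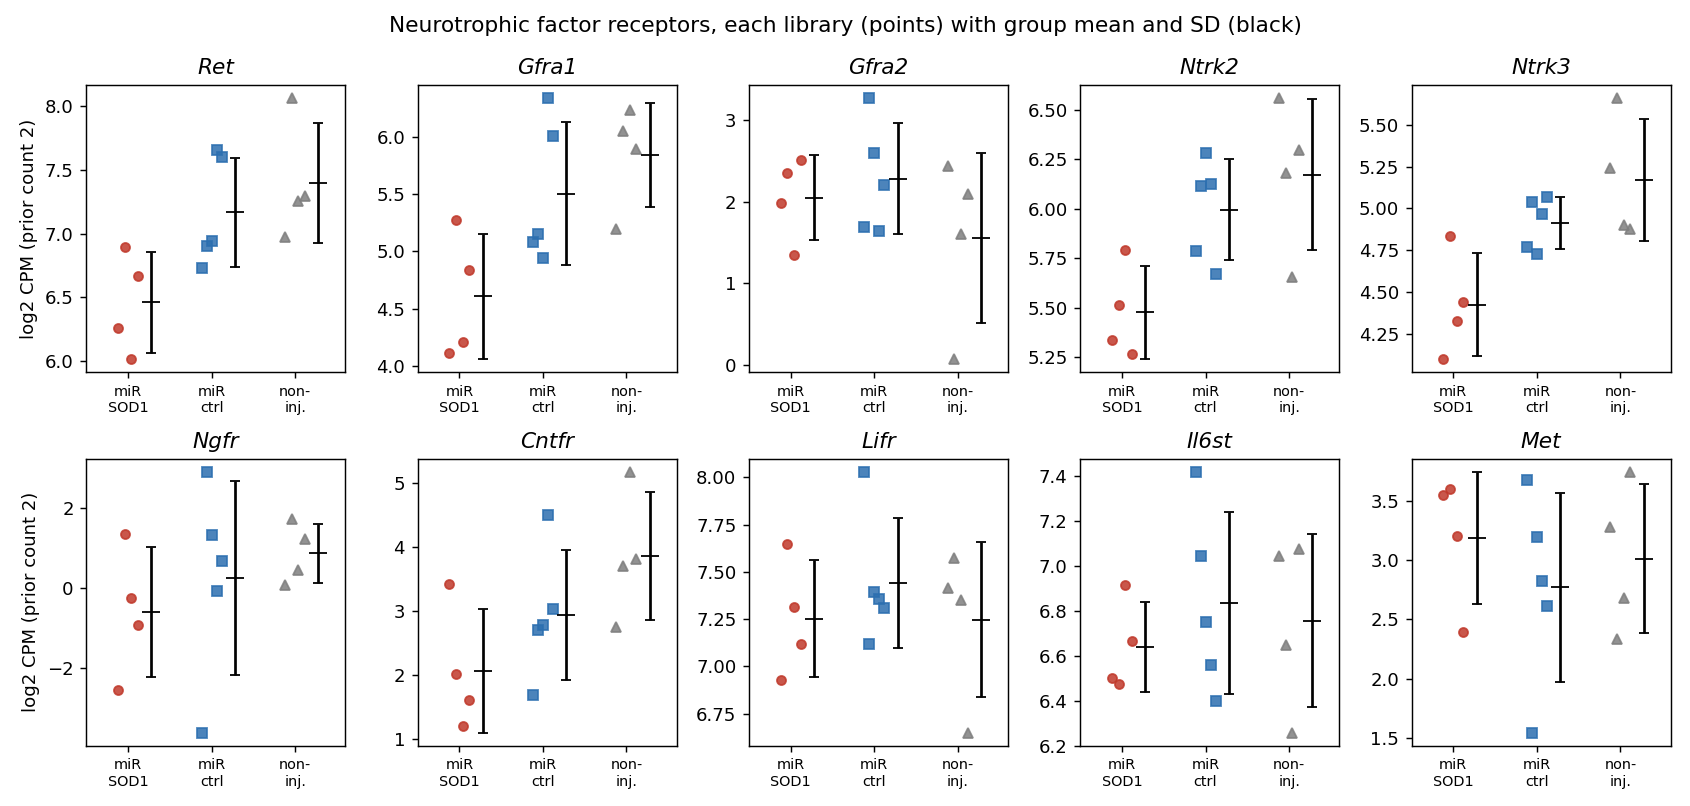
log2 CPM (prior count 2) of the 10 receptors in each library, by group, with the group mean and SD in black; each panel has its own vertical axis. AAV-miR SOD1 libraries lie low for Ret, Gfra1, Ntrk2 and Ntrk3, without overlap with non-injected libraries for Ret and Ntrk3, and are interspersed with the controls for Gfra2, Lifr, Il6st and Met.

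The neurotrophin receptors followed. Ntrk2 encodes TrkB, the receptor of BDNF and NT-4 (ENSMUSG00000055254, chr13:58806569-59133970, plus strand), and its count joins the full-length kinase with the truncated isoforms that lack it. The level was 40.3, 45.6, 55.4 and 38.4 CPM in AAV-miR SOD1 libraries. It was 55.1, 69.1, 77.8, 69.8 and 50.9 CPM in AAV-miR ctrl and 94.2, 72.5, 50.3 and 78.4 CPM in non-injected libraries. Only AAV-miR SOD1 replicate 3 reached into the control range. The log2 fold change was -0.52 ± 0.21 (SE; edgeR adjusted p = 0.294) against AAV-miR ctrl and -0.72 ± 0.22 (adjusted p = 0.140) against non-injected mice.

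Ntrk3 encodes TrkC, the receptor of NT-3 (ENSMUSG00000059146, chr7:78175959-78738012, minus strand). It was measured at 17.1, 28.4, 20.0 and 21.6 CPM in AAV-miR SOD1 libraries. It stood at 27.2, 32.8, 26.5, 31.2 and 33.5 CPM in AAV-miR ctrl and at 37.7, 50.5, 29.8 and 29.3 CPM in non-injected libraries. AAV-miR SOD1 replicate 2 exceeded 2 AAV-miR ctrl libraries, and no AAV-miR SOD1 library reached the non-injected range. The log2 fold change was -0.47 ± 0.21 (SE; edgeR adjusted p = 0.325) against AAV-miR ctrl and -0.76 ± 0.22 (adjusted p = 0.140) against non-injected mice. The log2 ratio of Ntrk2 to Ntrk3 CPM was 1.05 ± 0.36 in AAV-miR SOD1, 1.08 ± 0.34 in AAV-miR ctrl and 1.00 ± 0.43 in non-injected libraries (SD), with ranges that overlapped.

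Ngfr encodes p75NTR, which can promote death or survival according to its partners (ENSMUSG00000000120, chr11:95568818-95587735, minus strand). It had 2, 51, 16 and 7 counts in AAV-miR SOD1, 0, 153, 32, 33 and 45 in AAV-miR ctrl and 21, 56, 51 and 76 in non-injected libraries. A library at the limit of 3 counts would read 0.0802 to 0.216 CPM, so that AAV-miR SOD1 replicate 1 and AAV-miR ctrl replicate 1 were not distinguishable from no expression. The log2 fold changes were -1.37 ± 1.07 (SE) against AAV-miR ctrl and -1.03 ± 1.10 against non-injected mice, with 95% intervals that span -3.65 to 0.92 and -3.39 to 1.33. Single libraries carried the first value: it was -0.28 without AAV-miR ctrl replicate 3, -0.29 without both libraries whose headers contradict their labels, and -2.49 without AAV-miR SOD1 replicate 2.

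For the CNTF and LIF complex, Cntfr encodes the ligand-binding CNTFRα (ENSMUSG00000028444, chr4:41657498-41697089, minus strand). Its level was 10.6, 3.94, 2.23 and 2.97 CPM in AAV-miR SOD1 libraries. It was 3.14, 6.41, 6.75, 22.5 and 8.09 CPM in AAV-miR ctrl and 6.64, 12.98, 36.0 and 13.9 CPM in non-injected libraries. AAV-miR SOD1 replicate 1 stood apart from the other 3 and inside both control ranges, and replicate 5 was the highest library of each control group. The log2 fold change was -0.93 ± 0.62 (SE; edgeR adjusted p = 0.507) against AAV-miR ctrl and -1.81 ± 0.66 (adjusted p = 0.158) against non-injected mice. Without one library at a time, the first ranged from -1.63 without AAV-miR SOD1 replicate 1, where it was under an unadjusted p of 0.05, to -0.30 without AAV-miR ctrl replicate 5. The second ranged from -2.52 without AAV-miR SOD1 replicate 1 to -1.13 without non-injected replicate 5, and was not under that p without the latter library or without AAV-miR SOD1 replicate 3 (-1.47).

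Lifr encodes LIFRβ (ENSMUSG00000054263, chr15:7090614-7197489, plus strand) and Il6st encodes gp130, the signalling subunit shared by the IL-6 family (ENSMUSG00000021756, chr13:112464070-112510086, plus strand). Lifr was measured at 122 to 201 CPM in AAV-miR SOD1, 139 to 261 CPM in AAV-miR ctrl and 100.3 to 190.2 CPM in non-injected libraries, and its ranges overlapped. Its log2 fold change was -0.20 (95% interval -0.71 to 0.32) against AAV-miR ctrl and -0.01 (-0.55 to 0.53) against non-injected mice. Il6st was measured at 88.9 to 121 CPM in AAV-miR SOD1, 84.5 to 171 CPM in AAV-miR ctrl and 76.4 to 135 CPM in non-injected libraries, so that the treated libraries lay inside both control ranges. Its log2 fold change was -0.23 (95% interval -0.74 to 0.27) and -0.14 (-0.68 to 0.39). The log2 ratio of Cntfr to Lifr was -5.19 ± 1.15 (SD, n = 4) in AAV-miR SOD1, -4.51 ± 1.24 (n = 5) in AAV-miR ctrl and -3.39 ± 1.10 (n = 4) in non-injected libraries. The ranges overlapped, at -6.11 to -3.51, -6.34 to -2.86 and -4.66 to -2.18 in that order, and the differences were not tested.

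The promoters of 2 receptors with unlike results in the edgeR fit without a covariate are shown for reference. In a fit with a covariate, described below, both were lower at an unadjusted p under 0.05. Of the 10 receptors 7 had a window in the RefSeq promoter table (GRCm38.p6) and 5 had a single one. Without the covariate, Ntrk2 was lower in AAV-miR SOD1 libraries in each comparison at an unadjusted p, and Il6st was not. The 250 bases before the start of each gene are printed 5′ to 3′ on the strand of the gene. They lie at chr13:58806319-58806568 (plus) for Ntrk2 and chr13:112463820-112464069 (plus) for Il6st. Capitals mark the GC box GGGCGG or its reverse complement CCGCCC.
Ntrk2: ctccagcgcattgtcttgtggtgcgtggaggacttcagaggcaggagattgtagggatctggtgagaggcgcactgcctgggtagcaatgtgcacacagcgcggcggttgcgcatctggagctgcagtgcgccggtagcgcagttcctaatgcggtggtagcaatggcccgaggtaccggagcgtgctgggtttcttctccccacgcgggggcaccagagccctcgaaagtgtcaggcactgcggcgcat
Il6st: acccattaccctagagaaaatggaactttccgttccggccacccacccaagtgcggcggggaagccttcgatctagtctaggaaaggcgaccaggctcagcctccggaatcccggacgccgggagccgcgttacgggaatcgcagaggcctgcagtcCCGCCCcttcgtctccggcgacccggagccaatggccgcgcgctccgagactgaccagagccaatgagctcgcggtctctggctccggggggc
Il6st had 1 GC box and Ntrk2 none. A GC box was present on either strand in 32.7% of 32851 promoter windows of this length. Neither window held the CRE half-site TGACG or CGTCA (17.8% of windows) or the palindrome TAATTA (4.84%). Counts per gene do not measure promoter activity, and these matches are a description of the sequence alone.

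Met, the receptor tyrosine kinase of HGF (ENSMUSG00000009376, chr6:17463800-17573980, plus strand), was measured at 5.18 to 12.05 CPM in AAV-miR SOD1, 2.84 to 12.6 CPM in AAV-miR ctrl and 4.95 to 13.3 CPM in non-injected libraries. The log2 fold change was 0.34 (95% interval -0.54 to 1.22) against AAV-miR ctrl and 0.15 (-0.78 to 1.07) against non-injected mice. The groups overlapped, and no difference was detectable with intervals of this width.

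**Figure D3:**
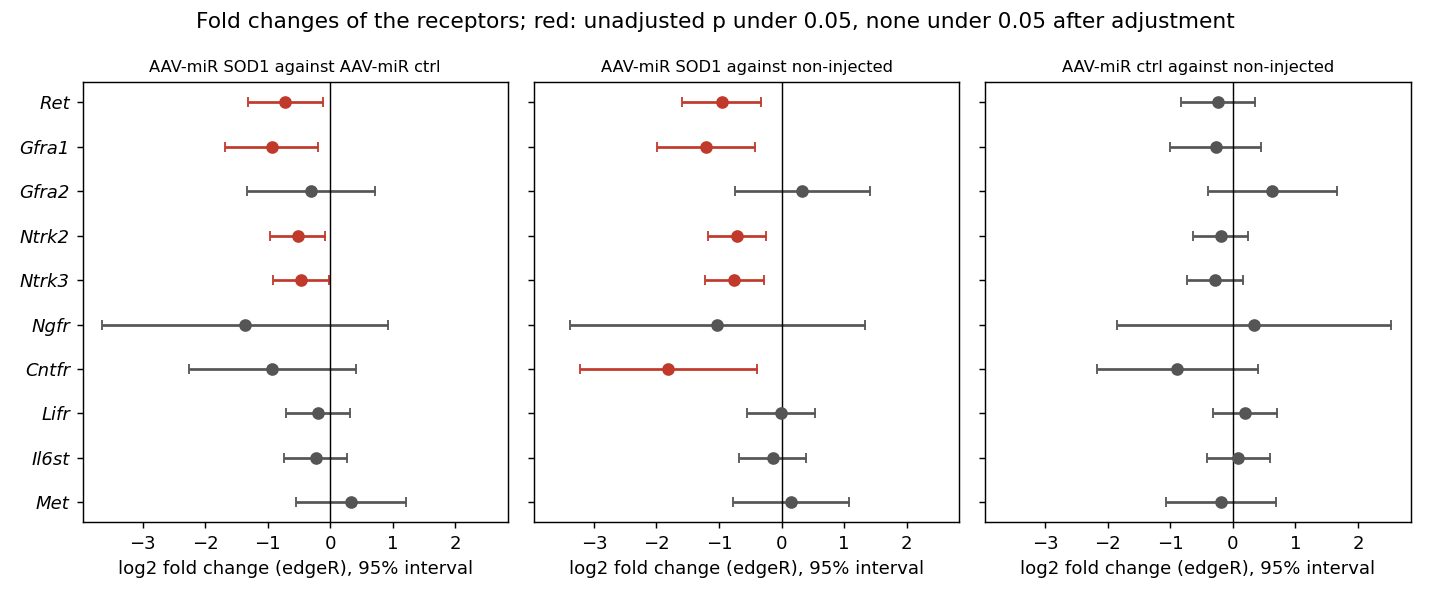
log2 fold change of each receptor with its 95% interval from edgeR in the 3 comparisons between groups, with an unadjusted p under 0.05 in red. Intervals of Ret, Gfra1, Ntrk2 and Ntrk3 lie below 0 in both comparisons of AAV-miR SOD1, that of Cntfr in 1 of them, and all 10 cross 0 between AAV-miR ctrl and non-injected mice.

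As a group, 4 of 10 receptors were lower in AAV-miR SOD1 than in AAV-miR ctrl libraries at an unadjusted edgeR p under 0.05 and none was higher, where 8.54% of all genes tested were lower and 5.99% higher by the same rule. These 4 were Ret, Gfra1, Ntrk2 and Ntrk3. The count was 1 or 2 without 1 of AAV-miR SOD1 replicates 1, 3 and 4 or AAV-miR ctrl replicates 3, 5 and 6. In those fits 4.39% to 8.38% of all genes were lower. Without AAV-miR SOD1 replicate 1 the 1 receptor was Cntfr, so that none of these 4 was called. Against non-injected mice 5 of 10 were lower and none higher, where 11.5% of all genes were lower and 9.36% higher. Ret and Ntrk3 were the 2 receptors whose values did not overlap with non-injected libraries, where 5.81% of all genes had no overlap in that direction. Against AAV-miR ctrl no receptor was free of overlap (2.46% of all genes). The median log2 fold change of the receptors was -0.50 against AAV-miR ctrl and -0.74 against non-injected mice, beside -0.04 and -0.09 over all genes. Both comparisons use the same 4 AAV-miR SOD1 libraries.

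The control vector itself was compared with no injection. Between AAV-miR ctrl and non-injected mice edgeR called none of the 10 receptors at an unadjusted p under 0.05, where 2.24% of all genes were lower and 1.38% higher, no receptor was free of overlap (0.517% of all genes lower without overlap), and DESeq2 and limma-voom called none after adjustment. The log2 fold changes ran from -0.89 ± 0.60 (SE) for Cntfr to 0.63 ± 0.48 for Gfra2. Without AAV-miR ctrl replicate 5, Cntfr was at -1.51 and was the 1 receptor under an unadjusted p of 0.05 (2.71% of all genes lower). For Ret the value was -0.24 (95% interval -0.83 to 0.36), for Gfra1 -0.27 (-0.998 to 0.45), for Ntrk2 -0.20 (-0.63 to 0.24) and for Ntrk3 -0.28 (-0.73 to 0.16).

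AAV-miR SOD1 was also set against both control groups, weighted equally, which uses the same libraries again. Gfra1 was lower by a log2 fold change of -1.07 ± 0.32 (SE; edgeR adjusted p = 0.103) and Ret by -0.84 ± 0.26 (adjusted p = 0.107). Ntrk2 stood at -0.62 ± 0.19 (adjusted p = 0.104), Ntrk3 at -0.61 ± 0.19 (adjusted p = 0.108) and Cntfr at -1.37 ± 0.59 (adjusted p = 0.190). These 5 of 10 receptors had an unadjusted p under 0.05, where 12.1% of all genes were lower and 10.2% higher, and none was free of overlap with both control groups (1.23% of all genes). Without AAV-miR ctrl replicate 1, edgeR's adjusted p was 0.0468 for Ret and 0.0448 for Gfra1, but in that fit 1694 of 17217 genes (9.84%) passed the adjusted threshold, against 0 in the fit of all libraries. The other tools gave more calls. DESeq2 called Ret, Gfra1, Ntrk2 and Ntrk3 lower, with adjusted p of 0.0326, 0.0223, 0.0445 and 0.0426 (5.51% of the genes it tested were called lower). limma-voom called Ret, Gfra1 and Ntrk2 lower, with adjusted p of 0.0478, 0.0493 and 0.0410 (3.03% of all genes). Against non-injected mice alone DESeq2 called Ret, Gfra1 and Ntrk3 lower, with adjusted p of 0.0474, 0.0369 and 0.0426 (3.31%), and limma-voom called none.

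The libraries numbered 5 and 6 were the deepest and were controls without exception, and within the AAV-miR ctrl group Ret, Gfra1 and Cntfr were highest in them. Among the libraries numbered 1 to 4 alone, Ret had a log2 fold change of -0.35 against AAV-miR ctrl in place of -0.72, that of Gfra1 was -0.36 in place of -0.94, and that of Ntrk3 was -0.39 in place of -0.47 (edgeR adjusted p = 0.894, 0.894 and 0.893). Cntfr moved most, to -0.10 in place of -0.93. Ntrk2 stood at -0.57 and was the 1 receptor under an unadjusted p of 0.05 (2.43% of all genes lower). Against the 2 non-injected libraries numbered 1 to 4, Ret was at -1.09, Gfra1 at -0.97, Ntrk2 at -0.88 and Ntrk3 at -0.99, each with an adjusted p of 0.290 or 0.295, and these 4 receptors were lower at an unadjusted p (7.64% of all genes). Cntfr was at -0.95 in place of -1.81 there and was no longer under that p. The libraries numbered 5 and 6 hold no AAV-miR SOD1 sample and give no value of their own.

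Markers of motoneurons differed between the groups, most uniformly the defining ones. Against both control groups, weighted equally, all 7 defining markers were lower at an unadjusted edgeR p under 0.05 (12.1% of all genes lower). Their median log2 fold change was -1.10. Against AAV-miR ctrl alone 5 of the 7 were lower by that rule (8.54% of all genes), and against non-injected mice alone 6 (11.5%). Of 5 markers of alpha and fast motoneurons 2 were lower against both control groups, Calca (-1.25) and Sv2b (-0.74). The others stood at -0.58 for Rbfox3, -0.37 for Chodl and 0.48 for Mmp9. Of 5 markers of gamma motoneurons 1 was lower, Esrrg (-0.67), and Nrp2 stood at 0.31. Summed alpha and fast markers were at 1372 to 2066 CPM in AAV-miR SOD1, 1310.2 to 2411 in AAV-miR ctrl and 1142.5 to 2669 in non-injected libraries, and summed gamma markers at 96.8 to 161, 106 to 159 and 92.6 to 140.4 CPM, so that both overlapped between the groups. A motoneuron score, the mean centred log2 CPM of the 7 defining markers, lay at -0.85, -0.22, -1.06 and -0.75 in AAV-miR SOD1 libraries, at -0.72, -0.14, -0.08, 1.00 and 0.77 in AAV-miR ctrl and at -0.30, 1.13, 0.75 and 0.47 in non-injected libraries. In pooled cells, fewer motoneurons among the captured material and less of a transcript per motoneuron cannot be told apart.

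Ret and Gfra1 followed this score closely. Across the 13 libraries Pearson r with the score was 0.95 for Ret and 0.94 for Gfra1, and 0.91 and 0.88 after group means were removed; Spearman rho was 0.96 and 0.90. It was 0.78 (0.65 with group means removed) for Cntfr and 0.74 (0.45) for Ntrk3, but 0.37 (-0.29) for Ntrk2, -0.03 (-0.11) for Lifr and -0.42 (-0.80) for Il6st. These values describe 13 libraries that also share differences in depth and in the content of other cells. Without the 2 libraries farthest from the median score, r was 0.93 for Ret and 0.93 for Gfra1.

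With the score as a covariate, a setting added after the data had been seen, the log2 fold change against both control groups was -0.12 for Ret, -0.19 for Gfra1, -0.39 for Ntrk3 and 0.13 for Cntfr, none under an unadjusted p of 0.05. It was -0.78 for Ntrk2 and -0.66 for Il6st, both with an edgeR adjusted p of 0.754. These 2 were the receptors under an unadjusted p of 0.05 in that fit, where 2.84% of all genes were lower. The same 2 receptors were so called with the covariate against AAV-miR ctrl (2.63% of all genes) and against non-injected mice (3.07%). The score was itself lower in the AAV-miR SOD1 group, so the covariate and the group share part of their variation.

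**Figure D4:**
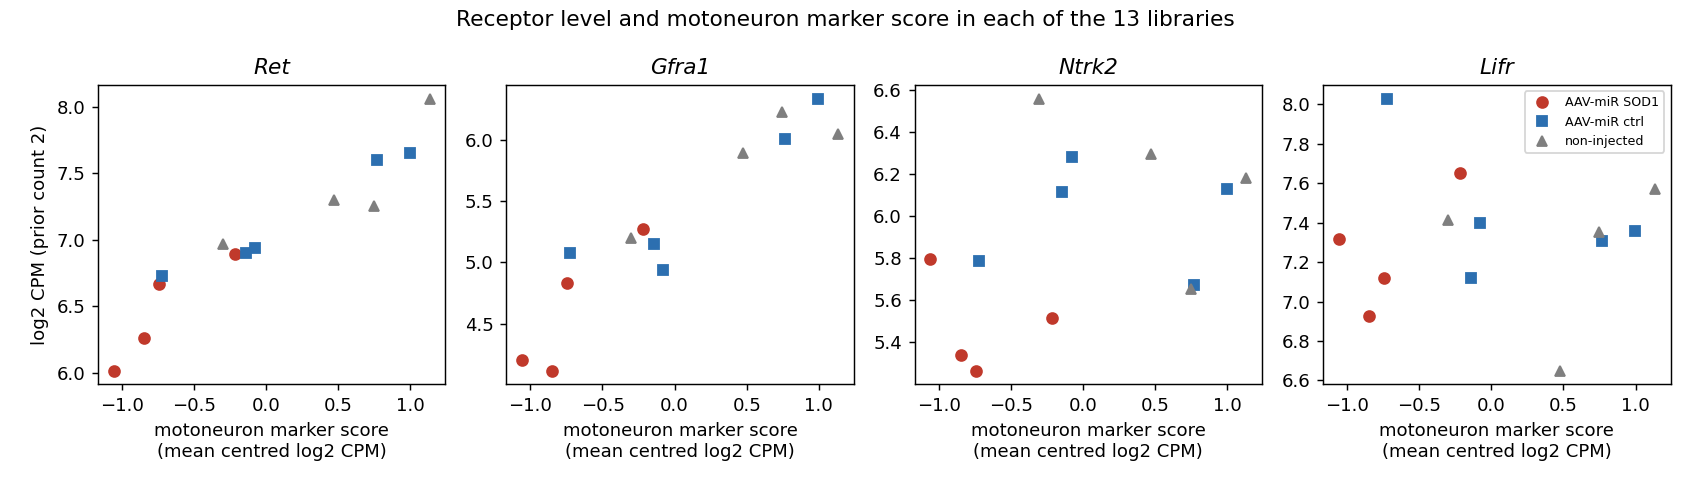
log2 CPM (prior count 2) of Ret, Gfra1, Ntrk2 and Lifr against the motoneuron marker score in each of the 13 libraries, with AAV-miR SOD1 as circles, AAV-miR ctrl as squares and non-injected as triangles. Ret and Gfra1 lie along a line through all 3 groups (r = 0.95 and 0.94), whereas Ntrk2 (r = 0.37) and Lifr (r = -0.03) follow it less or not at all.

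Markers of other cells also differed between the groups. Summed erythroid markers were at 14767 to 32657 CPM in AAV-miR SOD1, 2466 to 20092 in AAV-miR ctrl and 3877 to 14306 in non-injected libraries, with 4 of 4 genes higher than in both control groups at an unadjusted p under 0.05 (10.2% of all genes). Summed neutrophil markers were at 24113 to 65565, 7760 to 55145 and 10672 to 19365 CPM. Against both control groups, weighted equally, 4 of 4 neutrophil genes were higher. Against AAV-miR ctrl alone 1 was higher (5.99% of all genes), and against non-injected mice alone 3 (9.36%). Summed microglial markers were at 658 to 912, 385 to 1084 and 234 to 580 CPM. Of 6 microglial genes 3 were higher against both control groups, 1 against AAV-miR ctrl alone and 4 against non-injected mice alone. Of 7 astrocyte markers 1 was lower, with sums of 459 to 575, 568 to 1011 and 540 to 782 CPM, and none of the oligodendrocyte, endothelial or Schwann cell markers passed an unadjusted p of 0.05. Across the 13 libraries Ret had a Pearson r of -0.79 with microglial and -0.79 with erythroid markers (-0.66 and -0.565 with group means removed). For Gfra1 these were -0.64 and -0.77 (-0.36 and -0.52). With astrocyte and oligodendrocyte markers r was -0.20 and -0.075 for Ret, and -0.26 and -0.13 for Gfra1. For Ntrk2 r was 0.43 with astrocyte, 0.23 with oligodendrocyte and -0.56 with microglial markers. For Il6st these values were 0.42, 0.38 and 0.22. The part of other cells in the receptor values was not tested. TrkB and gp130 are also made by glia, so Ntrk2 and Il6st counts need not come from motoneurons alone.

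The receptors also tracked each other unequally. Ret and Gfra1 had a Pearson r of 0.92 across the 13 libraries (0.83 with group means removed), Ret and Ntrk3 0.85 (0.68) and Gfra1 and Cntfr 0.71 (0.51). Of 10346 genes with a mean log2 CPM of at least 3, those most like Ret over the 13 libraries were Map1b (r = 0.989), Slc4a3 (0.988) and Epb41l3 (0.987), with Spearman rho of 0.94, 0.94 and 0.96. Those most like Gfra1 were Kcnip1 (0.977), Dkk3 (0.977) and Chgb (0.973), and those most like Ntrk3 were Hspa12a (0.959), Nrcam (0.955) and Rap1gds1 (0.948). For Cntfr they were Oxr1 (0.948), Ywhah (0.927) and Panx1 (0.917), for Lifr Mga (0.921), Slit2 (0.911) and Cstb (0.897), and for Ntrk2 Smyd4 (0.853), Ano10 (0.847) and Orc4 (0.825). The closest genes to Met, Gfra2, Il6st and Ngfr were Ankrd27 (0.891), Pcmtd2 (0.888), Zfp317 (0.882) and Fggy (0.824), and for Gfra2 and Ngfr r was 0.50 and 0.59 without the 2 libraries farthest from the median.

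Ligands, further receptors, adaptors and target genes of these pathways were read from the same fits. Of 17 ligand genes 12 were tested; Gdnf, Pspn, Cntf, Il6 and Il11 were too low. Against both control groups 1 ligand was lower and 1 higher at an unadjusted p under 0.05, near the 12.1% of all genes lower and 10.2% higher by that rule. Bdnf, the ligand of TrkB, had a level of 2.49 to 5.31 CPM in AAV-miR SOD1, 7.51 to 21.1 CPM in AAV-miR ctrl and 4.24 to 15.3 CPM in non-injected libraries. Its log2 fold change was -1.64 ± 0.41 (SE; edgeR adjusted p = 0.0960). Its values were free of overlap with AAV-miR ctrl (2.46% of all genes in that direction) but overlapped those of non-injected mice. Osm, which encodes oncostatin M and signals through gp130, was higher at 1.36 ± 0.48 (edgeR adjusted p = 0.127). Hgf, the ligand of MET, was at 0.73 ± 0.58 (adjusted p = 0.50). The median over the 12 ligands was -0.07, beside -0.06 over all genes.

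Of 23 other receptors of these families 22 were tested, and 3 were lower and 3 higher at an unadjusted p under 0.05 (median log2 fold change -0.27), near the 12.1% and 10.2% of all genes. Sorcs1, a sortilin-family sorting receptor, stood at -0.85 ± 0.27 (SE; edgeR adjusted p = 0.107), Lingo1, a partner of p75NTR in the Nogo receptor complex, at -0.77 ± 0.29 (adjusted p = 0.140), and Insr, the insulin receptor, at 0.57 ± 0.22 (adjusted p = 0.157). Of 36 adaptors and kinases 35 were tested, with 5 lower and 1 higher (median -0.19), where 12.1% of all genes were lower and 10.2% higher. Frs3, an adaptor of Trk and FGF receptors, was at -1.01 ± 0.30 (adjusted p = 0.101), Maged1, a p75NTR-interacting protein, at -0.73 ± 0.22 (adjusted p = 0.104) and Dok5, a docking protein of RET, at -1.08 ± 0.36 (adjusted p = 0.119).

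All 24 target genes were tested, and 6 were lower and none higher (median -0.23), where 12.1% of all genes were lower and 10.2% higher. Gap43, a growth cone protein of regenerating axons, had a level of 11.7 to 25.1 CPM in AAV-miR SOD1, 19.4 to 52.1 CPM in AAV-miR ctrl and 38.2 to 54.3 CPM in non-injected libraries. Its log2 fold change was -1.37 ± 0.28 (SE; edgeR adjusted p = 0.0960). The injury-induced transcription factors Jun (-1.20 ± 0.39, adjusted p = 0.110) and Sox11 (-0.999 ± 0.36, adjusted p = 0.135) were lower as well at an unadjusted p under 0.05. No gene of the 4 lists passed an adjusted p of 0.05 by edgeR. All fold changes and counts of genes in these lists are against both control groups.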

How the data were processed

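Per the submitters' processing notes, cutadapt 1.8, STAR 2.5.2b, HTSeq 0.6.1 and build GRCm38 were used; the roles, annotation release and strand setting are not given in the sources used here. The authors deposited raw read counts per Ensembl gene, from full-length cDNA amplified with a low-input kit, per the labels' protocols. Amplification and the 500 cells per pool limit precision, most of all for low genes. The 5 rows that name no gene (46.97% to 61.58% of reads) were left out.

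Symbols, positions and exon lengths came from GENCODE M21, which named 48349 of 48709 rows. Genes were kept by filterByExpr (minimum count 10, minimum total 15; 17403 genes). All 13 libraries were fitted together in edgeR 4.0.16 (R 4.3.3) with TMM scaling and the quasi-likelihood F test, and p-values were adjusted over all genes (Benjamini-Hochberg, threshold 0.05). log2 CPM used a prior count of 2. DESeq2 1.42.0 and limma 3.58.1 (voom with quality weights) were alternatives, beside other scalings, filters, left-out libraries and a replicate block. Scripts were tested on simulated counts. Members, gene lists and marker lists were chosen with earlier results of these data known. All receptors are named; other genes are the 3 of smallest p in each pathway list against both control groups, and the closest genes by Pearson r. Groups came from sample titles.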

Additional observations from a re-analysis of the deposited data

Results flagged for a closer look

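The log2 ratio of Lifr to Il6st CPM stood apart in 1 library: AAV-miR SOD1 replicate 2 was at 1.174, whereas the other 3 libraries of the group lay between 0.401 and 0.452. The gap to the nearest library was 0.935 of the group's range, above Dixon's critical value of 0.829 for 4 samples. Over the 48 groups of values examined this way, chance alone would flag 2.4, and 1 was found.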

How the results depend on the processing

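Ngfr had the lowest mean CPM of the receptors in each group, and the small groups limit all fold changes. Its counts differed between libraries of similar depth. AAV-miR ctrl replicate 1 held 0 Ngfr counts among 21107956 counts in gene rows, and replicate 3 held 153 among 22633552. The part of depth in the Ngfr values was not tested. The number of receptors under an unadjusted p of 0.05 against AAV-miR ctrl was 4 in the main fit, where 8.54% of all genes were lower. It was 2 with library size alone (6% of all genes lower) and 2 with the motoneuron score as a covariate (2.63%). It was 2 without the libraries whose headers contradict their labels (7.21%) and 1 in the libraries numbered 1 to 4 (2.43%). It ranged from 1 to 4 when 1 library was left out. It was 1 without AAV-miR SOD1 replicate 1 (4.39%, the receptor being Cntfr) or 3 (5.55%) or AAV-miR ctrl replicate 5 (5.28%). It was 2 without AAV-miR SOD1 replicate 4 (8.38%) or AAV-miR ctrl replicate 3 (6.57%) or 6 (5.1%). Against non-injected mice it was 5 (11.5%), and 2 with the covariate (3.07%). Against both control groups it was 5 (12.1%), and 2 with the covariate (2.84%). Between AAV-miR ctrl and non-injected mice it was 0 (2.24%), and 1 without AAV-miR ctrl replicate 5 (2.71%, leave-one-out range 0 to 1). The number with an adjusted p under 0.05 was 3 with DESeq2 against non-injected mice. Against both control groups it was 4 with DESeq2, 3 with limma-voom and 2 without AAV-miR ctrl replicate 1 (range 0 to 2), where Ret and Gfra1 had adjusted p of 0.0468 and 0.0448 and 1694 of 17217 genes passed, against 0 in the fit of all libraries.

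With the replicate number as a block, the counts at an unadjusted p were 2 (Ntrk2 and Ntrk3) in each comparison of AAV-miR SOD1, where 3.41%, 3.32% and 4.67% of all genes were lower against AAV-miR ctrl, non-injected mice and both. The numbers are not known to pair mice: deviations of same-numbered libraries correlated between -0.418 and 0.388, and not every library correlated best with its own number.

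Some fold changes changed sign. Gfra2 against AAV-miR ctrl was 0.27 with the 2 contradicting libraries exchanged, 0.079 without them and up to 0.083 in the leave-one-out fits; against non-injected mice it was -0.38 exchanged and -0.20 with the covariate; between controls it was 0.63 in the main fit and -0.64 exchanged. Against both control groups, Gfra2 (0.01) was -0.11 with the replicate block, -0.048 in libraries 1 to 4, -0.055 exchanged, -0.47 with the covariate and -0.16 to 0.26 in the leave-one-out fits. Cntfr with the covariate was 0.45 in place of -0.93 against AAV-miR ctrl and 0.13 in place of -1.37 against both. Lifr against non-injected mice (-0.01) was 0.029 with RLE scaling, 0.041 with upper quartile scaling, 0.058 with library size alone, 0.004 with no filter, 0.029 with DESeq2, 0.086 with limma-voom, 0.056 with only the groups compared, 0.12 exchanged, 0.17 without the 2 libraries and -0.17 to 0.11 in the leave-one-out fits. Met against non-injected mice was -0.009 with limma-voom, -0.26 with the covariate and -0.045 to 0.44 in the leave-one-out fits, and -0.10 against both with the covariate. Il6st against non-injected mice ranged from -0.26 to 0.023 in the leave-one-out fits, and Ntrk3 between controls was 0.059 exchanged. The cause was not tested. Ret, Gfra1, Ntrk2 and Ntrk3 kept their direction against AAV-miR ctrl and against non-injected mice in every alternative run.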
